A study of Mus musculus with 2 samples.

Results

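The cells described are 138 G1/S CD8 T cells of a tacrolimus library, 13.8% (11.7 to 16.1%, exact binomial interval) of its 1001 CD8 cells and 138 of 3239 cells in the whole series. They were chosen by measured values: at least 200 detected genes, at least 1 UMI (a counted RNA molecule) of Cd8b1, none of Cd4, at least 1 of Mki67 or Top2a, at least 1 of 2 or more among Cdc6, Dtl, Ung, E2f1 and Mcm2, and none of Cdc20. Cdc6 loads the replicative helicase onto origins, Dtl is the substrate receptor of a ubiquitin ligase that acts in S phase, Ung removes uracil from DNA, E2f1 is a transcription factor of the G1/S transition, Mcm2 is a helicase subunit, and Cdc20 activates the anaphase-promoting complex in mitosis. The study transplanted spleen and bone marrow cells of wild-type (WT) C57BL/6 donors into lethally irradiated WT BALB/C recipients, in which donor T cells meet foreign tissue antigens. Recipients were given tacrolimus, a calcineurin inhibitor, or a monoclonal antibody against IL-2 from day 0 to day 6, and single cells were taken from the spleen on day 6 and sequenced from the 5′ end of transcripts. Each treatment had 1 library, and the labels do not say how many animals it holds. All groups compared here are cells of the tacrolimus library, so they share its treatment, its donor and recipient strains and its preparation.

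As background, a cell that commits to division first licenses replication origins by loading the MCM2 to MCM7 helicase, and the E2F factors, freed from the retinoblastoma protein by cyclin-dependent kinases, switch on the genes for licensing, nucleotide supply and the replication fork. Core histone genes are transcribed as DNA is copied. Cyclins A and B, the mitotic kinases and the spindle genes follow in G2 and mitosis. Tacrolimus blocks the calcineurin to NFAT route downstream of the T-cell receptor, which activated CD8 T cells use to induce cytokine genes.

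The 138 cells were compared with 3 other groups of CD8 cells in the same library. The first was 638 Cdc20-positive dividing cells, which carried Mki67 or Top2a and at least 1 UMI of Cdc20, a gene that peaks in G2 and mitosis. The second was 158 non-dividing cells with neither Mki67 nor Top2a. The remaining 67 cells, called other dividing cells, had Mki67 or Top2a but no Cdc20 and fewer than 2 of the 5 G1/S genes. The median depth was 13754 UMIs in G1/S cells, 16159.5 in Cdc20-positive cells, 9466 in other dividing cells and 8727.5 in non-dividing cells. Because depth differed, levels are UMIs of a gene per 10000 UMIs of all genes, summed over the cells of a group. Ranges in parentheses are 95% intervals for counting error alone. With 1 library no difference has a replicate check and no test was possible. A gene is called higher or lower where the summed levels differ by 1.5-fold or more, a rule of size and not of significance. The 10 genes of the rule were left out, and 879 further genes found in at least 5% of CD8 cells were compared.

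The label was checked against markers. Cd4 was barred by the rule and is no check. Of the other 3 CD4-lineage genes in the file, Cd40lg and Foxp3 had 0 UMIs in G1/S cells and Izumo1r had 4, and the list was low in every CD8 group. Cd8a, the partner chain of Cd8b1, stood at 2.58 UMIs per 10000 against 2.56 in Cdc20-positive and 2.42 in non-dividing cells. The B and plasma cell list summed to 3.27 UMIs per 10000 in G1/S cells, 0.974 in Cdc20-positive cells, 0.849 in other dividing cells and 8.11 in non-dividing cells, with 4 of its 12 genes at 0 in G1/S cells. The NK, innate and gamma-delta T list summed to 0.818, 0.601, 0.748 and 1.40 in the same order, and the myeloid list to 0.427, 0.428, 0.460 and 4.58, with 5 of its 15 genes at 0. These sums rested in part on 7 CD8 cells with a B, myeloid and erythroid load over 20 per 10000, of which 1 was a G1/S cell, 1 Cdc20-positive and 5 non-dividing. Without them the B and plasma list was 0.891 in G1/S cells against 0.965 in Cdc20-positive and 1.23 in non-dividing cells, and the NK list 0.568 against 0.582 and 0.587. The erythroid and platelet list reached 0.0514, with 8 of its 12 genes at 0. In that 1 G1/S cell the values went against the label. It held 283 UMIs of Cd74, 67 of H2-Ab1 and 35 of Tyrobp, genes of antigen-presenting and innate cells, with 1 UMI of Cd8b1 and 0 of Cd8a, and it met all 5 G1/S genes of the rule. In the other 137 cells the summed B, myeloid and erythroid genes were at most 10.9 per 10000, against 188 in that cell. It is named below wherever it carries a value. Of 4 cell barcodes that the libraries share, 1 belonged to a G1/S cell.

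Among the genes that chose the cells, Mcm2 was in 129 of 138 cells, E2f1 in 84, Dtl in 78, Cdc6 in 77 and Ung in 74. Exactly 2 of the 5 were seen in 41 cells, 3 in 45, 4 in 35 and all 5 in 17. Depth was higher where more were seen, with a median of 12686 UMIs in cells with exactly 2 and 18225 in cells with 5. Cdc6 stood at 0.638 UMIs per 10000 in G1/S cells, 0.259 in Cdc20-positive cells and 0.0607 in non-dividing cells. Ung stood at 0.689, 0.201 and 0.121, and E2f1 at 0.669, 0.208 and 0.135. These values chose the cells and are given as a description. Just outside the rule lay 32 dividing cells without Cdc20 that had 1 of the 5 genes, and 73 cells with 2 or more of the 5 that had a single UMI of Cdc20. In all, 307 of the 638 Cdc20-positive cells had 2 or more of the 5 and were held out by Cdc20 alone. The class is therefore a range along the cycle rather than a separate type. When each cell was thinned to 5000 UMIs before the rule was read, it took 110 cells, of which 60 were among the 138.

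Cycle genes that the rule did not read differed in both directions. They move through the cycle with the genes that chose the groups, so these loads describe the cells and are no test of them. Each cell's load of licensing and fork genes, summed over 28 genes outside the rule, had a median of 55.7 UMIs per 10000 in G1/S cells, 34.6 in Cdc20-positive cells, 11.96 in other dividing cells and 7.67 in non-dividing cells. The load of G2/M regulator and spindle genes had a median of 79.0 in G1/S cells against 182 in Cdc20-positive cells, 62.6 in other dividing cells and 21.1 in non-dividing cells. Of the 138 cells, 125 lay above the Cdc20-positive median of the first load, 131 below its median of the second and 118 did both. The groups nevertheless overlapped, with G1/S cells from 11.03 to 85.2 on the first load and Cdc20-positive cells from 3.25 to 79.6.

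**Figure D1:**
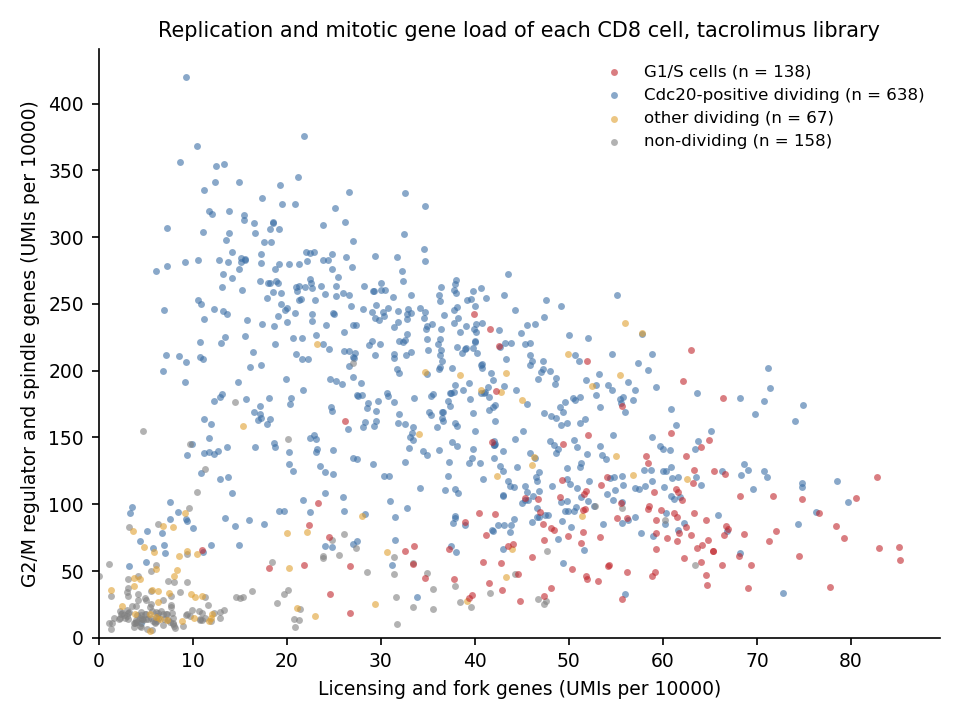
Each point is 1 CD8 cell of the tacrolimus library, with its summed UMIs per 10000 of licensing and fork genes on the horizontal axis and of G2/M regulator and spindle genes on the vertical axis. The 138 G1/S cells (red) lie low and to the right, with medians of 55.7 and 79.0, mixed with the right-hand part of the 638 Cdc20-positive cells (blue), and the non-dividing cells (grey) lie near the origin.

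Against the Cdc20-positive dividing cells, 81 of 879 genes were higher in G1/S cells (9.22%) and 123 were lower (14.0%). Both shares are the background for every list count against Cdc20-positive cells below. The higher genes included most of the licensing list, and the lower genes were led by mitotic genes. Against all other CD8 cells together, 78 genes (8.87%) were higher and 119 (13.5%) lower, with a median log2 ratio over all genes of -0.01. Without the 7 CD8 cells of high B, myeloid and erythroid load, 67 genes were higher than in Cdc20-positive cells and 126 lower. Cells cannot be chosen by Cdc20 and by 5 G1/S genes without also choosing genes that move with these through the cycle, so these counts describe the cells and are no test of them.

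Helicase subunit genes were higher in G1/S cells than in Cdc20-positive cells. Of 10 licensing and firing genes outside the rule, 7 were higher than in Cdc20-positive cells, 1 was lower and 2 were neither, with a median log2 ratio of 0.67 beside -0.04 for all genes. Mcm3 stood at 3.16 UMIs per 10000 (2.92 to 3.42) in G1/S cells, 1.74 in Cdc20-positive cells, 1.17 in other dividing cells and 0.80 in non-dividing cells, a ratio of 1.82 (1.66 to 1.996) to Cdc20-positive cells. Over single G1/S cells Mcm3 ran from 0 to 12.2 with a median of 2.97, against a median of 1.32 in Cdc20-positive cells, so the groups overlapped cell by cell. Mcm6 stood at 3.85 UMIs per 10000 against 2.19, a ratio of 1.76 (1.62 to 1.91). Mcm4 (2.17 against 1.21), Mcm5 (3.08 against 1.96) and Mcm7 (2.71 against 1.68) had ratios of 1.80, 1.57 and 1.61. All 5 helicase genes measured outside the rule were therefore higher by a like factor, between 1.57 and 1.82. The Cdc20-positive group was itself mixed for licensing genes. They summed to 22.6 UMIs per 10000 in G1/S cells. In Cdc20-positive cells the sum was 18.3 with 2 or more of the 5 G1/S genes and 10.1 with fewer. At an equal depth of 5000 UMIs, Mcm3 was seen in 80.0% of 135 G1/S cells, 48.7% of 632 Cdc20-positive cells and 28.5% of 151 non-dividing cells. No cell type lacks this gene by lineage. The non-dividing share is the nearest background, but 30 of the 158 non-dividing cells had 2 or more of the 5 G1/S genes.

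The other licensing genes divided. Orc6, a subunit of the origin recognition complex, stood at 1.59 UMIs per 10000 against 0.929 in Cdc20-positive cells (ratio 1.72, 1.51 to 1.95), and Tipin, a fork protection factor, at 2.05 against 1.35 (1.52, 1.35 to 1.69). Gmnn, which encodes geminin, the inhibitor that stops a second licensing in the same cycle, stood at 2.49 against 1.81, a ratio of 1.38 (1.25 to 1.52) under the 1.5-fold limit. Dbf4, the activating subunit of the CDC7 kinase that fires origins, went the other way. It stood at 0.638 UMIs per 10000 in G1/S cells and 1.35 in Cdc20-positive cells, a ratio of 0.472 (0.390 to 0.567), but was 2.78-fold (1.89 to 4.20) its level in non-dividing cells. In GRCm38 (GENCODE M21), Mcm3 lies on chromosome 1 from 20802968 to 20820312, Mcm6 on chromosome 1 from 128331590 to 128359664 and Dbf4 on chromosome 5 from 8396973 to 8422716, all on the minus strand and all protein-coding.

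The E2F factors bind a short motif in promoters of such genes. The 4 letter strings TTTCCCGC, TTTCGCGC, TTTGCCGC and TTTGGCGC were searched on both strands in RefSeq promoters (GRCm38.p6, 250 bases before to 50 after a gene's start). Strings on opposite strands can overlap, as TTTGGCGC and the reverse complement of TTTCGCGC do in Mcm6. Of 12 licensing genes in the file, 8 had such a promoter, and 5 of these (Mcm3, Mcm5, Mcm6, Mcm7 and Cdc6) held a match. The share was 6 of 17 for fork genes, 0 of 15 for nucleotide synthesis genes, 1 of 17 for G2/M regulators and 4 of 45 for spindle genes. It was 9 of 60 among genes higher than in Cdc20-positive cells, 7 of 92 among genes lower and 40 of 651 among all genes compared. Genes of MYC, mTORC1 and amino acid supply, most of which were not past 1.5-fold against Cdc20-positive cells, had a match in 4 of 25. E2F and cyclin genes had 2 of 8, DNA repair genes 0 of 5 and cytotoxic genes 1 of 16. Over all genes' promoters, 2.26% of 32851 promoters held a match, and 4.90% of genes with a promoter of at least 60% GC did. A match is a string of letters and not a bound site. The 250 bases before the start are shown for 2 helicase genes that were higher in G1/S cells and for Dtl, a gene of the rule, with matches in capitals, 5′ to 3′ on the gene's strand. Mcm6 has 3 matches, Mcm5 has 2 that overlap, and the single match of Dtl is the last 8 bases before the start. The windows are chr1:128359706-128359955 (minus strand) for Mcm6, chr8:75109259-75109508 (plus strand) for Mcm5 and chr1:191575545-191575794 (minus strand) for Dtl.
Mcm6: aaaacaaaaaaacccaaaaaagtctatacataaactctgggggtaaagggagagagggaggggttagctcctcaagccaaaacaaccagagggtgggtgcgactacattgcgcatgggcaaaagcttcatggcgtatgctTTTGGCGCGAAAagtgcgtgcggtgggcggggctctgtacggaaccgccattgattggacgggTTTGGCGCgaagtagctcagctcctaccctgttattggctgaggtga
Mcm5: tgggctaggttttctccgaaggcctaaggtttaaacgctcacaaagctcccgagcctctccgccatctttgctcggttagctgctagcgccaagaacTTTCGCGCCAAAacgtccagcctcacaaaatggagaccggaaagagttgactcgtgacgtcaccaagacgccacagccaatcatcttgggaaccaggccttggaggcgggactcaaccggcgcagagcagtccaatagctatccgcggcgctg
Dtl: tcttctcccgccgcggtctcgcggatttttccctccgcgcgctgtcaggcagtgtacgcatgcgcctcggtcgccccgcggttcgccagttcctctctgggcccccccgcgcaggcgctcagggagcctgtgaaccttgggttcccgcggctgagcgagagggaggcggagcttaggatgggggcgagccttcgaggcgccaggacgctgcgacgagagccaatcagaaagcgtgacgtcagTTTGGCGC

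Replication fork genes were also higher. Of 18, 9 were higher than in Cdc20-positive cells, 0 lower and 9 neither, with a median log2 ratio of 0.58. Among all genes 9.22% were higher and 14.0% lower. Pcna, the sliding clamp of the DNA polymerases, stood at 3.59 UMIs per 10000 (3.33 to 3.87) in G1/S cells, 2.14 in Cdc20-positive cells, 1.41 in other dividing cells and 1.06 in non-dividing cells. Over single cells it had a median of 3.57 in G1/S cells and 1.64 in Cdc20-positive cells, and 2 of 138 G1/S cells against 116 of 638 Cdc20-positive cells had none. Rfc3, a subunit of the loader that places PCNA on DNA, had the highest ratio of the list at 1.87 (1.59 to 2.21), with 0.99 against 0.53. Slbp, which binds the stem-loop of histone mRNAs, stood at 3.95 against 2.51 (ratio 1.57, 1.45 to 1.70). Uhrf1, Hells and Chaf1a, which act on chromatin behind the fork, had ratios of 1.77, 1.57 and 1.70. The lowest ratio of the list was that of Asf1b, a histone chaperone, at 1.04 (0.928 to 1.16), and the DNA ligase gene Lig1, the methyltransferase gene Dnmt1 and the histone chaperone gene Nasp lay between at 1.41, 1.24 and 1.16. The Cdc20-positive cells that also had 2 or more of the 5 G1/S genes lay close to the G1/S cells here, with a summed fork level of 25.7 per 10000 against 30.9 and against 15.8 in Cdc20-positive cells with fewer.

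**Figure D2:**
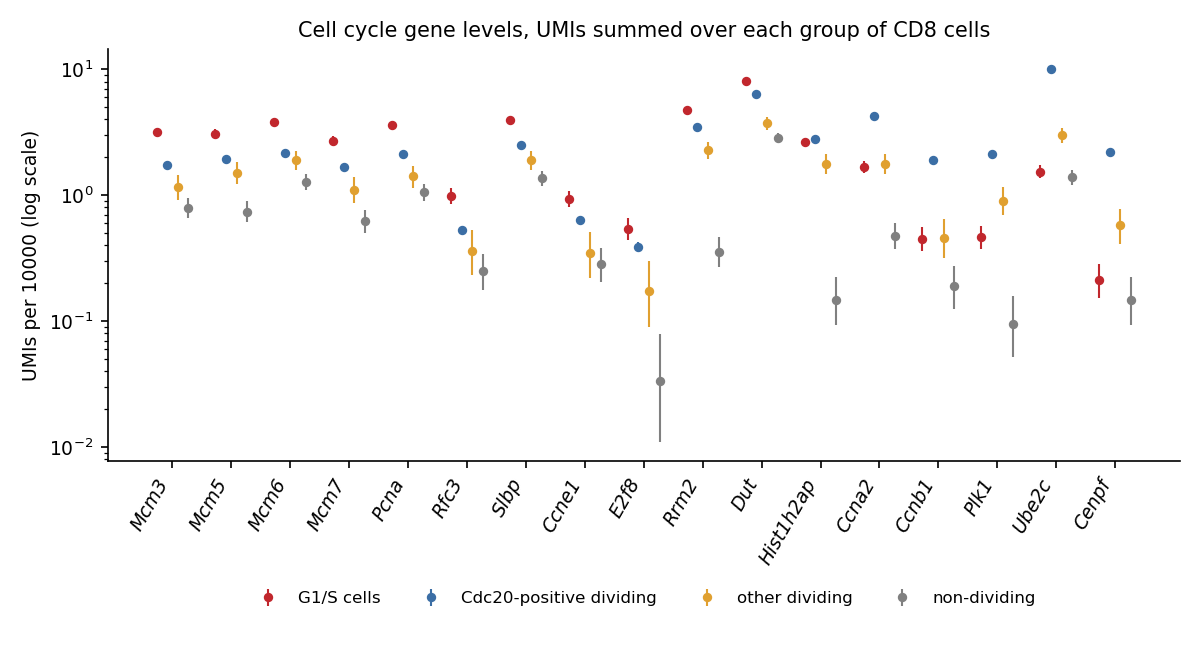
Levels of 17 genes in UMIs per 10000 on a log axis, summed over the cells of each of the 4 groups of CD8 cells, with bars for 95% Poisson intervals of the sum. From Mcm3 to Dut the G1/S cells (red) are the highest group, and from Ccna2 to Cenpf the Cdc20-positive cells (blue) are the highest.

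Cyclins and E2F factors moved less. Of 7 genes, 0 passed 1.5-fold in either direction against Cdc20-positive cells (median log2 ratio 0.32). Ccne1, which encodes cyclin E1, the partner of CDK2 at the start of S phase, came nearest with 0.936 UMIs per 10000 against 0.632 (ratio 1.48, 1.25 to 1.74), and E2f8, an E2F repressor, had 0.540 against 0.389 (1.39, 1.11 to 1.72). Cdk4 and Cdk6, the kinases that cyclin D activates, had ratios of 1.04 (0.945 to 1.14) and 0.874 (0.697 to 1.09), and Ccnd2, which encodes cyclin D2, 1.34 (1.10 to 1.63). Against all other CD8 cells, Ccne1 and E2f8 passed the limit at 1.61 and 1.59. Of 5 genes for inhibitors and phosphatases of cyclin-dependent kinases, Cdkn3, Cdkn2d and Cdkn2a were lower than in Cdc20-positive cells and 0 were higher. Among all genes 14.0% were lower and 9.22% higher. Cdkn2a rested on 7 UMIs, with a ratio of 0.622 (0.241 to 1.35). Cdkn3, a phosphatase that acts on CDKs, stood at 0.556 against 1.20 (ratio 0.463, 0.377 to 0.564). The p53 target Cdkn1a, which encodes p21, was at 0.159 against 0.112, an interval of 0.933 to 2.13 for its ratio, with 11 of its 31 UMIs in 1 cell.

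Nucleotide synthesis genes were close to the Cdc20-positive level and far above the non-dividing level. They summed to 31.0 UMIs per 10000 in G1/S cells and 26.0 in Cdc20-positive cells. In Cdc20-positive cells the sum was 31.8 with 2 or more of the 5 G1/S genes and 17.9 with fewer. Of 16 genes, 2 were higher than in Cdc20-positive cells, among them Umps, an enzyme of pyrimidine synthesis, 0 were lower and 14 were neither. Among all genes 9.22% were higher and 14.0% lower. Rrm2, the regulated subunit of ribonucleotide reductase, stood at 4.72 UMIs per 10000 in G1/S cells, 3.52 in Cdc20-positive cells, 2.29 in other dividing cells and 0.357 in non-dividing cells. It varied widely among the G1/S cells, from 0 to 14.4 with quartiles of 1.92 and 7.11. Dut, which removes dUTP, was in every G1/S cell and stood at 8.08 against 6.35, and Tk1 and Tyms, which make thymidine nucleotides, had ratios of 1.25 and 1.19. Of 5 DNA repair genes outside the rule, 0 were higher than in Cdc20-positive cells and 1 was lower. That gene, Parpbp, a partner of PARP1, stood at 0.108 against 0.501.

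Mitotic genes were lower than in Cdc20-positive cells. Of 19 G2/M regulators other than Cdc20, 17 were lower, 0 higher and 2 neither (median log2 ratio -1.24), and of 54 spindle and cytokinesis genes 45 were lower, 0 higher and 9 neither (-1.16). The rule asks for no Cdc20, and these genes accompany it. Ube2c, the ubiquitin-conjugating enzyme of the anaphase-promoting complex, stood at 1.54 UMIs per 10000 (1.37 to 1.73) in G1/S cells against 10.1 in Cdc20-positive cells, a ratio of 0.153 (0.136 to 0.172), and its level in non-dividing cells was 1.39. Cenpf, a kinetochore protein gene, had the lowest ratio of the spindle list, with 0.211 against 2.21 (0.0956, 0.0684 to 0.130), and 111 of 138 G1/S cells had none. Ccnb1, which encodes cyclin B1, stood at 0.453 against 1.91, and Plk1, a mitotic kinase gene, at 0.468 against 2.14. Ccna2, which encodes cyclin A2, an S and G2 cyclin, was less far down at 1.68 against 4.23 (ratio 0.397, 0.354 to 0.444). Mybl2, itself a G1/S target, was the highest of the list with a ratio of 1.25 (1.01 to 1.53), and Stmn1, which encodes stathmin, the highest of the spindle list at 0.936. The other genes among the 12 lowest ratios, Aurka, Hmmr, Aspm, Sgol2a, Ckap2, Prr11 and Tnfaip8l1, lay between 0.127 and 0.244. Among them Tnfaip8l1, a TNFAIP8 family gene and not a mitotic gene by name, was also lower than in non-dividing cells, with 0.0514 UMIs per 10000 against 0.405 and 0.182, from 10 UMIs.

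Cycle genes stood above the level of the non-dividing cells. That group was chosen by having no Mki67 and no Top2a, so genes that move with these are lower in it by choice. Of its 158 cells, 30 had 2 or more of the 5 G1/S genes, so it is no clean resting level. Against non-dividing cells, 367 of 879 genes (41.8%) were higher in G1/S cells and 134 (15.2%) lower, and the median log2 ratio over all genes was 0.43. With scaling by the median of ratios, which removes that shift, 232 were higher and 215 lower, and with scaling to the UMIs of the genes in the file 276 and 186. All 10 licensing genes, all 18 fork genes, all 16 nucleotide synthesis genes and all 5 repair genes compared were higher by 1.5-fold or more, with median log2 ratios of 1.95, 2.01, 1.39 and 3.21. Under the median of ratios scaling these medians were lower by 0.43 and stayed above 0. The mitotic lists, low beside Cdc20-positive cells, were above the non-dividing level too, with 14 of 19 G2/M regulators and 50 of 54 spindle genes higher. Kif11, a spindle motor gene, stood at 0.643 UMIs per 10000 against 0.0337 in non-dividing cells and 1.22 in Cdc20-positive cells. Esco2, the S-phase acetyltransferase of cohesin, stood at 0.643 against 0.0135 in non-dividing cells, where 2 of 158 cells had it, and 0.654 in Cdc20-positive cells. Of other genes among the 12 highest, Neil3, a DNA glycosylase gene, Cdca2 and Sgol2a had ratios of 18.6 (6.11 to 92.1), 21.1 (6.98 to 104) and 20.6 (3.40 to 844). Bcat1, which encodes a branched-chain amino acid transaminase, had 28 UMIs in G1/S cells and 0 in non-dividing cells, at least 7.12-fold higher on a floor of 3 UMIs over the group.

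**Figure D3:**
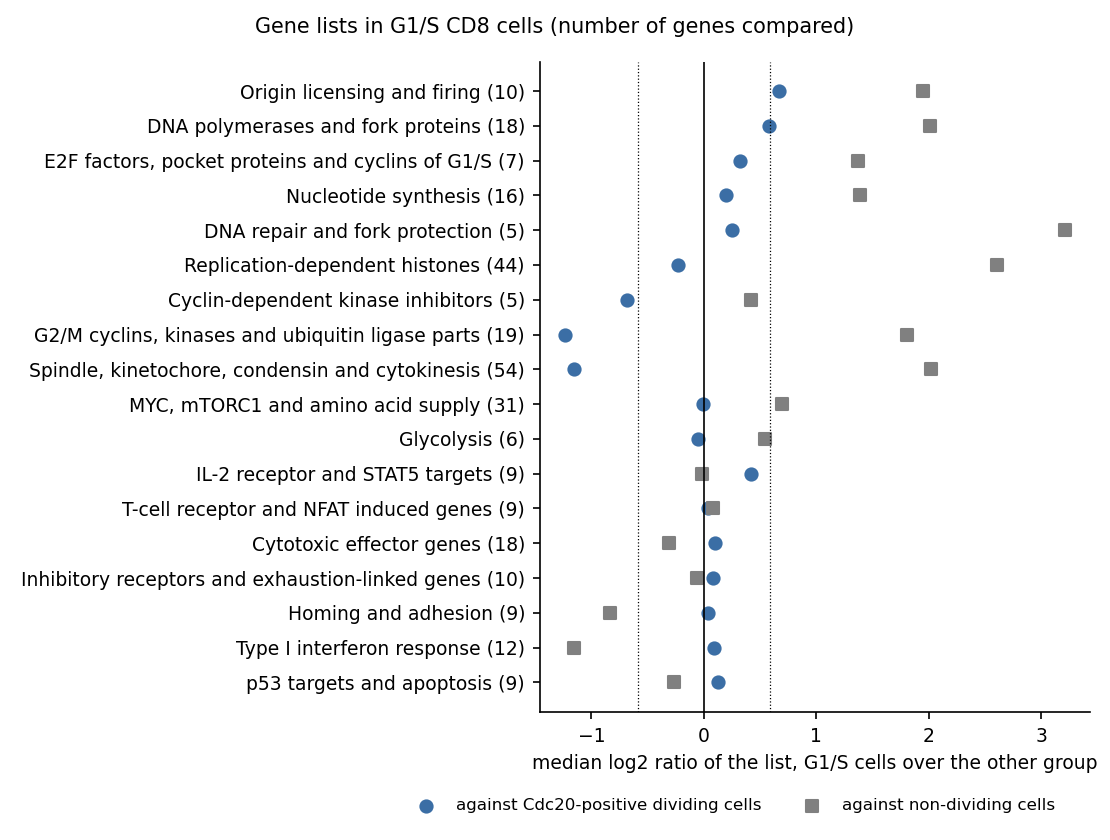
Median log2 ratio of the genes in each list, G1/S cells over Cdc20-positive dividing cells (blue circles) and over non-dividing cells (grey squares), with the number of genes compared in parentheses and dotted lines at 1.5-fold. Licensing and fork lists lie right of 0 in both comparisons, and the G2/M and spindle lists lie left of 0 in the first (-1.24 and -1.16) and right of it in the second (1.81 and 2.02).

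Replication-dependent histone genes summed to 22.7 UMIs per 10000 (22.0 to 23.4) in G1/S cells, 26.8 (26.5 to 27.1) in Cdc20-positive cells and 3.99 (3.67 to 4.32) in non-dividing cells. The sum was thus lower than in Cdc20-positive cells by less than 1.5-fold and far above the non-dividing level. Of 44 genes, 1 was higher than in Cdc20-positive cells, 2 were lower and 41 were neither (median log2 ratio -0.23), and all 44 were higher than in non-dividing cells (2.61, also with 2 genes at their lower bound). Among all genes 9.22% were higher and 14.0% lower than in Cdc20-positive cells, and 41.8% were higher than in non-dividing cells. The median against Cdc20-positive cells was 0.11 when each cell's UMIs were parted at random, the rule was read on 1 part and the levels on the other, so its direction was not settled. Hist1h1b, a linker histone gene, stood at 2.03 UMIs per 10000 in G1/S cells, 2.68 in Cdc20-positive cells and 0.168 in non-dividing cells, and Hist1h2ap, an H2A gene, at 2.63, 2.81 and 0.148. Near-identical copies share sequence, so the values of single core histone genes are uncertain and the sum is the firmer measure. The 1 gene called higher, Hist1h2bh, had 27 of its 56 UMIs in 1 cell and a ratio of 1.005 without it.

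The sum hid a division among the G1/S cells. The summed histone level was under 10 UMIs per 10000 in 56 of the 138 cells, between 10 and 15 in 7 and over 15 in 75, limits that were set after seeing the values. Median depths were alike, at 13455.5 UMIs in the low and 14077 in the high cells. The same limits gave 227, 40 and 371 of the 638 Cdc20-positive cells and 149, 5 and 4 of the 158 non-dividing cells. The summed licensing genes were 20.4 UMIs per 10000 (19.4 to 21.4) in low-histone and 23.8 (22.9 to 24.7) in high-histone cells, and the fork genes 25.6 (24.5 to 26.8) and 34.4 (33.3 to 35.5). The 5 helicase genes outside the rule had ratios between 1.01 and 1.20. Mcm3 stood at 3.08 UMIs per 10000 in low-histone and 3.15 in high-histone G1/S cells (ratio 1.02, 0.862 to 1.21), Mcm6 at 3.77 and 3.84 (1.02, 0.875 to 1.19), Mcm7 at 2.64 and 2.65, Mcm4 at 1.92 and 2.25 (1.17, 0.948 to 1.44), Mcm5 at 2.75 and 3.29 (1.20, 1.01 to 1.42), and Ccne1 at 0.962 and 0.945 (0.982, 0.721 to 1.34). Among the rule genes Cdc6 had a ratio of 0.885 (0.596 to 1.32), while Ung was lower in the high-histone cells, at 0.505 against 0.857 (0.589, 0.404 to 0.857). The Ung ratio was 0.638 without the cell of antigen-presenting genes.

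Other genes differed more between the low-histone and high-histone cells. Rrm2 stood at 6.35 UMIs per 10000 in high-histone and 2.35 in low-histone G1/S cells (ratio 2.71, 2.29 to 3.21), Ccna2 at 2.28 and 0.923 (2.47, 1.88 to 3.26), and Cdk1, the kinase of mitotic entry, at 1.70 and 0.685 (2.48, 1.81 to 3.44). Esco2 was in 78.7% of high-histone and 14.3% of low-histone cells (ratio of levels 7.59, 3.97 to 16.3), and Nusap1, a spindle protein gene, in 56.0% and 8.93% (13.6, 5.65 to 43.0). Pcna (1.42), Tk1 (1.58) and Gmnn (1.45) lay between. Myc, a transcription factor gene that drives cell growth after activation, went the other way with 0.450 in high-histone and 1.04 in low-histone cells (0.432, 0.296 to 0.624). It was 0.314 without the cell with most Myc UMIs. G2/M regulators summed to 14.4 and 24.9 per 10000 in low-histone and high-histone cells, both below the 51.6 of Cdc20-positive cells. Across the 138 cells the histone load and the load of G2/M regulator and spindle genes had a Spearman correlation of 0.66 and a Pearson correlation of 0.52. The licensing and fork load had 0.15 and 0.08 with the same G2/M load. These are descriptions over cells of 1 library, which share its depth scale, and the genes of this paragraph and the one before were chosen after their values were seen where the named rule did not give them.

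**Figure D4:**
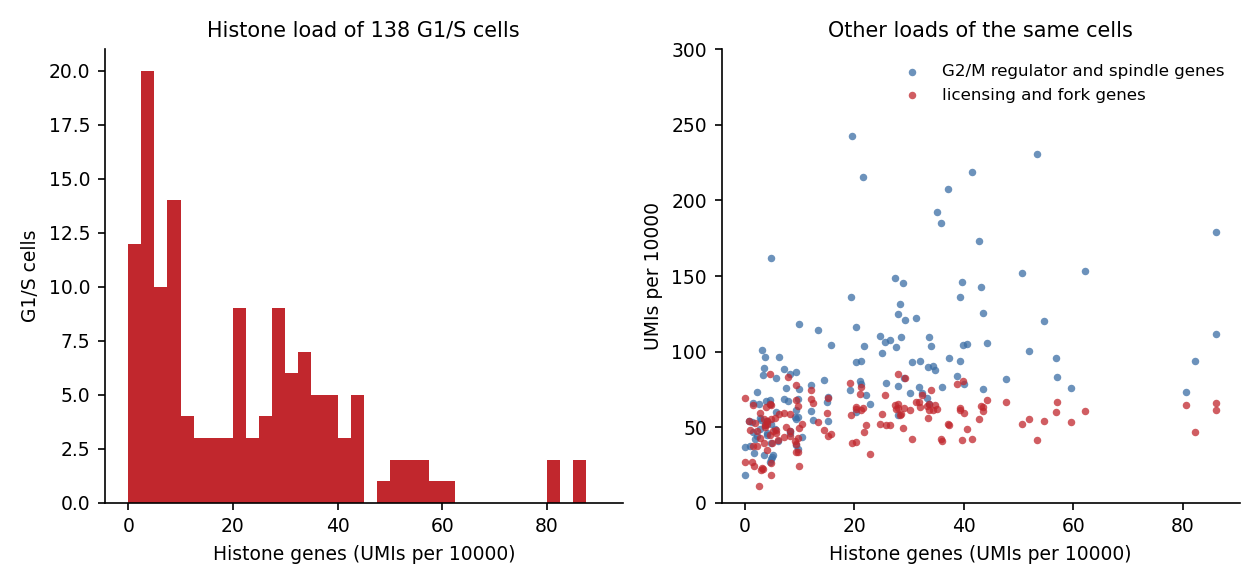
Left, the number of G1/S cells by summed histone level in UMIs per 10000. Right, for the same 138 cells, the summed level of G2/M regulator and spindle genes (blue) and of licensing and fork genes (red) against the histone level. The left panel shows 56 cells under 10 and 75 over 15, and in the right panel blue points lie higher at high histone levels (Spearman 0.66) while red points run from 11.03 to 85.2 with a weaker slope (Spearman 0.37).

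Most growth and metabolism genes were near the level of the Cdc20-positive group, which was itself mixed for growth genes. Of 31 genes of MYC, mTORC1 and amino acid supply, 1 was higher, 1 lower and 29 neither (median log2 ratio -0.01), and against non-dividing cells 18 were higher and 1 lower (0.69, beside 0.43 for all genes). In the latter comparison 41.8% of all genes were higher and 15.2% lower, and in the former 9.22% and 14.0%. The growth genes summed to 63.5 UMIs per 10000 in G1/S cells and 68.2 in Cdc20-positive cells. In Cdc20-positive cells the sum was 86.0 with 2 or more of the 5 G1/S genes and 43.5 with fewer. The G1/S cells thus lay below the first of these parts and above the second. Myc stood at 0.664 UMIs per 10000 in G1/S cells, 0.467 in Cdc20-positive cells, 0.0719 in other dividing cells and 0.324 in non-dividing cells, and 95 of the 138 cells had none. Ddit4, an inhibitor of mTORC1, was lower than in both groups, at 0.988 against 1.61 and 2.10, with ratios of 0.614 (0.526 to 0.713) and 0.471 (0.392 to 0.566). The 1 gene called higher, Atf5, rested on 15 UMIs. Of 6 glycolysis genes, all were neither against Cdc20-positive cells, with Gapdh at 52.5 against 53.6 and Pkm at 7.66 against 7.71, and Tpi1, Pgam1 and Ldha were higher than in non-dividing cells.

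Cytotoxic genes as a list were near the level of the Cdc20-positive group, which was itself mixed. The 19 in the file summed to 134 UMIs per 10000 in G1/S cells and 131 in Cdc20-positive cells. In Cdc20-positive cells the sum was 114 with 2 or more of the 5 G1/S genes and 155 with fewer. Of 18 genes compared, 2 were higher than in Cdc20-positive cells, 0 lower and 16 neither (median log2 ratio 0.10). Among all genes 9.22% were higher and 14.0% lower. Gzmb, which encodes granzyme B, stood at 41.3 UMIs per 10000 in G1/S cells, 42.7 in Cdc20-positive cells, 39.7 in other dividing cells and 36.4 in non-dividing cells, and Prf1, which encodes perforin, at 2.38, 2.44, 2.42 and 2.06. Gzma, which encodes granzyme A, stood at 35.6, 31.9, 53.9 and 52.3 in the same order. Its ratio to non-dividing cells was 0.679 (0.658 to 0.702), within the 1.5-fold limit. Gzmb was in 136 of 138 G1/S cells, from 0 to 331 with a median of 32.8. Against non-dividing cells 2 were higher and 5 lower, beside 41.8% and 15.2% of all genes. Among the lower were Ccl5, a chemokine gene, at 10.7 against 31.5 (ratio 0.341, 0.324 to 0.359) and Klrd1, a killer-cell receptor gene, at 2.63 against 4.59 (0.573, 0.510 to 0.643). Gzmc was called higher at 1.19 against 0.380, but 148 of its 232 UMIs were in 1 cell, and without it the ratio was 1.15. Gzma, Ccl5, Klrd1 and the genes named next that the rule did not give were chosen after their values were seen.

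Genes that the T-cell receptor induces through NFAT and other routes numbered 9, of which 4 were higher than in Cdc20-positive cells and 0 lower (median log2 ratio 0.04). These were the chemokine genes Ccl3 and Ccl4, the orphan receptor gene Nr4a1 and the interferon-gamma gene Ifng. Of all genes, 9.22% were higher and 14.0% lower than in Cdc20-positive cells. The 17 genes of this list in the file summed to 10.9 UMIs per 10000 in G1/S cells and 7.90 in Cdc20-positive cells. The median over single cells went the other way, at 4.63 and 5.46, so the higher sum did not describe the typical G1/S cell. Ccl4 stood at 4.03 UMIs per 10000 in G1/S cells, 1.53 in Cdc20-positive cells, 1.57 in other dividing cells and 3.80 in non-dividing cells. Its median over G1/S cells was 0, since 73 of 138 cells had none, and the highest cell held 205 of 783 UMIs. The ratio to Cdc20-positive cells was 2.63, and 1.96 without that cell. Ccl3 had a ratio of 1.96 (1.74 to 2.21) and 1.81 without its highest cell. Ifng and Nr4a1 fell under 1.5 without 1 cell each, from 1.60 to 1.24 and from 1.95 to 1.44. Against non-dividing cells only Ifng was higher among the 9, at 0.787 against 0.398 (1.98, 1.46 to 2.72).

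Genes of the IL-2 receptor and of STAT5 targets were mostly neither. Of 9, Tnfrsf4 and Pim2 were higher than in Cdc20-positive cells and 0 lower, beside 9.22% and 14.0% of all genes. Il2ra, the alpha chain of the IL-2 receptor, stood at 0.612 UMIs per 10000 in G1/S cells, 0.759 in Cdc20-positive cells, 0.388 in other dividing cells and 0.411 in non-dividing cells, with a ratio of 0.806 (0.660 to 0.978) to the Cdc20-positive level. Pim2, a survival kinase gene, stood at 0.458 against 0.266 in Cdc20-positive cells and 0.613 in non-dividing cells. Tnfrsf4, which encodes OX40, had 60 of its 101 UMIs in 1 cell, and its ratio of 1.74 was 0.712 without it. Of 10 inhibitory receptor genes, Entpd1 alone was past 1.5-fold against Cdc20-positive cells. Entpd1, which encodes CD39, stood at 0.0720 against 0.175 (0.412, 0.221 to 0.708) from 14 UMIs, and Pdcd1, which encodes PD-1, at 2.88 against 2.47 (1.17, 1.06 to 1.28).

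Interferon, homing and memory genes were mostly lower than in non-dividing cells and near the level of Cdc20-positive cells. Of all genes, 15.2% were lower and 41.8% higher than in non-dividing cells, and 14.0% lower and 9.22% higher than in Cdc20-positive cells. Of 12 type I interferon genes, 9 were lower than in non-dividing cells and 0 higher (median log2 ratio -1.15), while against Cdc20-positive cells 1 was higher and 0 lower (0.09). Isg15, a ubiquitin-like modifier, stood at 0.360 UMIs per 10000 in G1/S cells, 0.349 in Cdc20-positive cells, 0.460 in other dividing cells and 1.004 in non-dividing cells, and Rtp4 at 0.103, 0.147, 0.360 and 0.748. Of 9 homing genes, 8 were lower than in non-dividing cells (-0.84), and 1, Ly6c1, was higher than in Cdc20-positive cells, with 24 of its 33 UMIs in 1 cell. Ccr2, a receptor for inflammatory chemokines, stood at 1.01 against 0.988 and 1.74. Il7r, the IL-7 receptor gene of naive and memory cells, stood at 0.514, 0.398, 2.06 and 1.70 in the 4 groups in the same order, and Cd7, a T-cell surface gene, at 0.767, 0.622, 2.17 and 2.74. Other dividing cells thus lay nearer the non-dividing cells for Il7r and Cd7. The other genes among the 12 lowest against non-dividing cells had few UMIs in G1/S cells, with Pydc4 10, Gbp5 3, Lilrb4a 20, Nccrp1 20, Ikzf2 10, Creb3l1 6 and the pancreatic elastase gene Cela3b 4.

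The 12 highest ratios to Cdc20-positive cells outside the rule were not cycle genes, and most rested on 1 or a few cells. Cd74 had a ratio of 44.9, and 283 of its 294 UMIs were in the antigen-presenting cell. Tyrobp had 35 of 42 UMIs there, and without its highest cell its ratio was 0.879 in place of 5.21. Napsa had 40 of 53 UMIs in the same antigen-presenting cell and a ratio of 0.739 without it. Ifitm3, an interferon-induced membrane protein gene, had 51 of its 127 UMIs in that cell and 39 in 1 other. Its ratio was 2.22 without the antigen-presenting cell, with the other cell kept, and a ratio without both was not computed. Tfpi had 11 of 24 UMIs in 1 cell (1.42 without it). Tpst1, a tyrosine sulfotransferase gene, was in 16.7% of G1/S cells and 6.74% of Cdc20-positive cells (ratio 2.68, 1.57 to 4.47, from 23 UMIs). H2-Oa, Akr1b8 and Gngt2 had 21, 17 and 17 UMIs, of which the antigen-presenting cell held 5 of H2-Oa and 4 of Gngt2. Without it the ratios of H2-Oa and Gngt2 were 1.82 and 1.87. Beyond these, Cdca7, a replication-linked E2F and MYC target, was at 1.02 UMIs per 10000 against 0.514 in Cdc20-positive cells (1.98, 1.68 to 2.33) and was chosen after its value was seen.

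Signs of free RNA and of RNA quality are given beside these levels. Genes of the exocrine pancreas, which no spleen cell makes, summed to 1.27 UMIs per 10000 in G1/S cells, 1.39 in Cdc20-positive cells, 2.11 in other dividing cells and 2.39 in non-dividing cells. Of 13 compared, 11 were lower than in non-dividing cells, beside 15.2% of all genes. The part of free RNA in the lower effector and interferon levels was not tested. Lars2, a mitochondrial leucyl-tRNA synthetase gene, stood at 12.9 UMIs per 10000 in G1/S cells and 6.51 in Cdc20-positive cells, with 393 of its UMIs in 1 cell and a ratio of 1.69 without it, and Gm42418, which overlaps ribosomal RNA, at 137 and 117. No mitochondrial gene is in the file, and the part of RNA quality in the levels was not tested. Immediate early and dissociation stress genes had a median log2 ratio of -0.00 to Cdc20-positive cells, with 0 of 10 higher and 3 lower. Of 9 p53 and apoptosis genes, 2 were higher and 1 lower (0.13), and the 3 T-lineage genes compared were neither. Among all genes 9.22% were higher and 14.0% lower than in Cdc20-positive cells.

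The choice of cells and their levels used the same UMIs, so each cell's UMIs were also parted at random into 2 equal sets, the rule read on 1 set and the levels on the other. Both sets come from the same cells, so the split takes out shared counting error only and is no test of the cells. The first set gave 127 cells. On the other set the median log2 ratios to Cdc20-positive cells were 0.75 for licensing, 0.61 for fork, 0.17 for E2F and cyclin, 0.31 for nucleotide synthesis, -1.11 for G2/M regulator and -0.94 for spindle genes. The cells with exactly 2 of the 5 G1/S genes, the loosest members, had licensing, fork and G2/M levels of 22.1, 29.8 and 23.5 per 10000, and those with 4 or 5 had 23.7, 31.0 and 18.3. The 32 cells just outside with 1 of the 5 had 14.4, 19.4 and 27.7. The 73 cells held out by a single Cdc20 UMI had 21.2, 30.6 and 27.8, close to the members on the first 2 measures.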

How the data were processed

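Cells and lists were chosen with earlier results of these data known. The authors deposited natural log values of 2000 genes per cell. Per the submitters' processing notes Cell Ranger 3.1.0, Seurat and mm10 were used, and further steps are not given in the sources used here. Undoing the log at a scale of 50000 gave whole UMIs for 100% of the tacrolimus values, within 0.001, and each cell's total (509 to 87844 UMIs). Of its 1996 columns, 308 are anti-IL-2 cells and were left out, which left 1688 cells, of which 1475 had 200 or more genes and 1001 of these were CD8 cells. The anti-IL-2 table (1551 cells) has 13.9% of values below 0, as after integration, and was not used. T-cell receptor libraries were not analysed here.

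Levels were sums of UMIs per 10000, with exact Poisson intervals, ratios had exact conditional intervals and shares exact binomial ones (scipy 1.17.1, pandas 2.3.3, Python 3.11.15). UMI recovery and calls were checked on simulated counts. Scrublet (scanpy 1.11.5) called 3 of 1475 cells doublets, 0 of them G1/S cells, and all were kept. Named genes were the 12 highest and 12 lowest ratios against Cdc20-positive and non-dividing cells, the highest and lowest of each list against all other CD8 cells, and up to 6 by level in each of 7 cycle lists. Alternatives were depth thinning, other scalings, minimum shares, cell filters and splitting UMIs; leaving out the 7 cells of high other-lineage load was chosen after seeing the data. Promoters were matched by symbol. Some items are not reported here.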

Additional observations from a re-analysis of the deposited data

How the results depend on the processing

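All values rest on 1 library and on sums of UMIs, so the precision given covers counting error only, and genes with under about 30 UMIs in G1/S cells are poorly fixed. Medians of gene lists that changed direction and were past 1.5-fold, as log2 ratios, were those of the NK list, -0.70 at 5000 UMIs and -0.67 at 3000 against all other CD8 cells and -0.66 at 3000 against Cdc20-positive cells, and of the B and plasma list, 0.85 with genes in 2% of cells or more against all other CD8 cells. The count of genes higher than in all other CD8 cells was 138 with each cell thinned to 5000 or to 3000 UMIs, 124 at 8000, 124 with genes in 2% of cells or more and 37 with genes in 20% or more. Against Cdc20-positive cells, 124 were higher and 189 lower at 3000 UMIs, and 130 and 32 were higher with the 2% and 20% minimum. Against non-dividing cells, the median of ratios scaling gave 232 higher and 215 lower, and the 20% minimum gave 57 lower. The share of G1/S cells was 17.0% with at least 1 of the 5 genes, 9.69% with at least 3 and 11.1% with the rule read at 5000 UMIs. No paired analysis was possible because each treatment had 1 library. Where the cause of a change is not the construction of the alternative, it was not tested.

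Single genes that changed direction, and were past 1.5-fold before or after, are given as log2 ratios, against all other CD8 cells unless stated. Where a gene has several values, they are in the order all other CD8, Cdc20-positive and non-dividing cells, unless stated. At 5000 UMIs, Napsa was -0.075, Bcat1 0.76, Fcer1g -0.70 and -0.75 against Cdc20-positive cells, Gngt2 -0.81 and -0.58 against Cdc20-positive cells, and against non-dividing cells Tyrobp was 0.055, Parpbp -0.65 and Napsa -0.84. At 8000 UMIs, Itgam was -0.95 and -0.88. At 3000 UMIs, Napsa was -0.056, Bcat1 0.59, Fcer1g -0.67 and -0.66 against Cdc20-positive cells, Hist1h2bn -0.79 against those, Cela3b 0.060 and 0.40 against Cdc20-positive cells, Clps -1.16 and -1.25, and against non-dividing cells Ly6c1 was 0.20, Parpbp -0.39, Ckap2 -1.03, Atf5 1.20, Clps -1.39 and Napsa -1.03. With at least 3 of the 5 genes, Tnfrsf4 was -0.32 and -0.38. With exactly 2, Cd74 was -1.89, Napsa -1.61 and -1.22, Hist1h2bh -0.42 and -0.61, Hist1h1a -1.22 and -1.40, Cd68 0.64, Cdkn1a -0.62, and against non-dividing cells Hist1h4h was -0.043, Cmpk2 -0.87, Ifitm3 -1.06 and Napsa -2.63. Without cells with a UMI of B, myeloid or erythroid markers, Tyrobp was -2.36 and -1.93, Napsa -0.76 and -0.30, and against non-dividing cells Ly6c1 was 0.997, Cdkn1a 1.24, Gngt2 0.60 and Napsa -1.84. With the rule and levels on separate random parts of each cell's UMIs, Cd74 was -2.22, Tyrobp -1.46, Tnfrsf4 -0.20, -0.26 and -0.41, Napsa -0.21 and -1.17 against non-dividing cells, Hist1h1b 0.84 and 0.60, Itgam -2.85 and -2.62, Hist1h4h 0.28 and 0.12, Hspa1b 0.64, 0.57 and 1.10, Clps -1.995, -1.46 and -3.04, Atf5 -0.65 and -0.15, Creb3l1 0.12 and 0.29, and Akr1b8 -0.082 and -0.041 against Cdc20-positive and non-dividing cells. Without the 7 cells of high other-lineage load, chosen after seeing the data, Tyrobp was -0.12, Napsa -0.80 and -0.42, and against non-dividing cells Cd74 was 3.02, Ly6c1 1.14, Cdkn1a 1.34, Fcer1g 0.91 and Napsa -1.79.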
